A study of Homo sapiens with 4 samples.

Results

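The 28 genes described here encode enzymes of cholesterol synthesis, the proteins that control them, and enzymes of fatty acid synthesis. They were chosen by gene symbol, as 17 sterol synthesis enzymes, 6 genes for the sterol regulators and the sterol carrier STARD4, and 5 fatty acid synthesis genes, out of 57428 genes with a sense-strand entry in the deposited tables. All 28 had an entry and all 28 were among the 21238 genes that passed the filter on low counts. The data are Bru-seq libraries of U2OS, a human osteosarcoma line, carrying the P-body protein DCP1a fused to GFP and kept under G418 in both groups. Bru-seq captures RNA made while cells take up bromouridine, here at 2 mM for 30 min with a chase of 0 h, so the reads cover introns as well as exons and follow ongoing transcription. The hypertonic group (2 libraries) was in medium brought to 300 mM sodium with 10x PBS. The isotonic group (2 libraries) was at 150 mM and had 1x PBS added as a mock treatment. Neither the length of the exposure nor the origin of the replicates in separate cultures is given, so p-values measure the spread between these libraries only, which may be technical.

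Cholesterol is built from acetyl-CoA through mevalonate, isoprenoids, squalene and lanosterol, and fatty acids from acetyl-CoA through malonyl-CoA. When sterol in the endoplasmic reticulum is low, the escort protein SCAP carries the membrane-bound SREBP transcription factors to the Golgi, where they are cut and released to the nucleus. When sterol is high, INSIG proteins hold SCAP back. SREBP-2, from SREBF2, acts mainly on the sterol genes, and SREBP-1, from SREBF1, mainly on the fatty acid genes, and many of these genes are therefore known to move together.

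The hypertonic libraries held 28367788 reads (replicate 1) and 23048409 reads (replicate 2), and the isotonic ones 44888307 and 23410787. Of the gene reads, 8.60% and 6.03% lay on the antisense strand in the hypertonic libraries, against 3.17% and 3.36% in the isotonic ones. Markers of the labelled line's mesenchymal lineage summed to 22.1 to 37.6 RPKM (reads scaled to gene length and library depth) over the 4 libraries, with VIM, at 13.8 to 31.3 RPKM, the largest part of the sum. SPARC, COL1A1, CDH2 and RUNX2 were present, TWIST1 was at 0 in all 4, and ALPL (at most 0.0118 RPKM), SP7 (at most 0.0189 RPKM) and COL1A2 (at most 0.0020 RPKM) were near 0. The summed epithelial markers stood at 0.0486 to 0.227 RPKM, the blood markers at 0.0193 to 0.0594 RPKM and the hepatocyte markers at 0.024 to 0.0759 RPKM, with ALB and CD3E at 0. In bulk libraries, fewer cells making an RNA and less RNA made per cell cannot be told apart.

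Promoter sequences of 4 members are shown because 3 of them, HMGCS1, INSIG1 and STARD4, had some of the widest gaps between libraries of one group, and the last, SREBF2, was the one member in which the searched sterol response element was found. Each stretch lies upstream of the transcription start, reads 5′ to 3′ on the gene's strand, and comes from RefSeq (GRCh38.p14). Capitals mark the sterol response element TCACNCCAC, at which SREBPs are known to bind, and the inverted CCAAT box ATTGG or its complement CCAAT, at which the SREBP partner NF-Y is known to bind.
SREBF2, chr22:41832879-41833078, plus strand: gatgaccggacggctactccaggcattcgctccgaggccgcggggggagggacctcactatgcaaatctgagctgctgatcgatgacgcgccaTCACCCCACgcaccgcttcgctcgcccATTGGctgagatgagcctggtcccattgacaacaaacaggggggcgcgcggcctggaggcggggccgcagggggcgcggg
HMGCS1, chr5:43313513-43313662, minus strand: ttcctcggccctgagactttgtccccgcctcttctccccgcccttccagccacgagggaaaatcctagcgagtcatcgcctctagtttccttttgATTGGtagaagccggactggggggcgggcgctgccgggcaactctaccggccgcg
INSIG1, chr7:155297628-155297775, plus strand: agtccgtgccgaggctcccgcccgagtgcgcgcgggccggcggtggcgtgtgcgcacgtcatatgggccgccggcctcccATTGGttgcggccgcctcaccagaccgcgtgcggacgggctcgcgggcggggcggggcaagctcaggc
STARD4, chr5:111512591-111512785, minus strand: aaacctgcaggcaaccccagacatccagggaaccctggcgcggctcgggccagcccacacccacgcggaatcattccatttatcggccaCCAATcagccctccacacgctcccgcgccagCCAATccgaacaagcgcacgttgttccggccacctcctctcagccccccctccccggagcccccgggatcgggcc

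RefSeq windows from 250 bases before to 50 after the start were matched for 24 of the 28 genes, and both strands were searched. The element TCACNCCAC was found in 1 of the 24, SREBF2, in the form TCACCCCAC, and 1.13% of all 35116 promoter windows held TCACNCCAC. The CCAAT box was found in 18 of the 24 (75.0%), and in 34.6% of all windows. The GC box GGGCGG, a site for the factor SP1, was found in 23 of the 24 (95.8%), and in 44.95% of all windows. The E-box CACGTG was found in 4 of the 24 (16.7%), INSIG1, LSS, SC5D and SCAP, and in 7.26% of all windows. Some genes have more than 1 window, so shares over genes and over windows differ in their base. These letters describe the windows alone and say nothing of binding.

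Per kilobase, the sterol gene HMGCS1 was made at by far the highest level of the 28. HMGCS1, which joins acetoacetyl-CoA and acetyl-CoA ahead of mevalonate (chromosome 5, 43289395 to 43313512 of GRCh38, minus strand), stood at 19.4 RPKM in hypertonic replicate 1, 5.06 in hypertonic replicate 2, 9.68 in isotonic replicate 1 and 37.5 RPKM in isotonic replicate 2. Its isotonic mean of 23.6 RPKM was followed by SQLE at 4.07, STARD4 at 3.55, MSMO1 at 3.31, SREBF2 at 2.82 and CYP51A1 at 2.801 RPKM. HMGCS1 lay above SQLE in both isotonic libraries, and SQLE (4.32 and 3.82 RPKM) lay above STARD4 (3.34 and 3.76 RPKM) in both. STARD4 and MSMO1 overlapped, as did SREBF2 and CYP51A1. PMVK was lowest at 0.311 RPKM, after HSD17B7 at 0.486 and MVK at 0.612 RPKM. ACACA, whose entry spans chromosome 17 from 37084988 to 37406780, stood at 1.73 RPKM, rank 11 of the 28 per kilobase.

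No sterol or fatty acid gene was told apart between hypertonic and isotonic cells. With edgeR's quasi-likelihood test and Benjamini-Hochberg adjustment over all 21238 tested genes, 0 of the 28 passed an adjusted p of 0.05, where 0 of all tested genes did (0%). At an unadjusted p under 0.05, edgeR counted 0 of the 28 against 10.9% of all tested genes (2316, of which 1889 were higher and 427 lower in hypertonic libraries). DESeq2 also counted 0 of the 28, against 731 of all tested genes (3.44%). The lowest adjusted p among the 28 was 0.572 with edgeR and 0.595 with DESeq2, for ACAT2 in both. With 2 libraries a group, the smallest p an exact permutation test of a single gene can give is 0.333, so none was run.

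The fold changes moved with the libraries used. With hypertonic replicate 2 left out, the widest log2 fold changes of the 28 were 1.43 (ACAT2), 1.33 (INSIG1) and -1.27 (SREBF1). With hypertonic replicate 1 left out, those of the same genes were 0.20, -1.44 and 0.25. A group left with a single library is then assumed to vary like the other group, so only fold changes are given for such runs.

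Levels below are counts scaled to library size (CPM, sense-strand reads only), scaled by TMM factors, and each set of 4 is in the order hypertonic replicate 1, hypertonic replicate 2, isotonic replicate 1 and isotonic replicate 2. A log2 fold change is hypertonic over isotonic, with its standard error from edgeR. Across the 28 the median log2 fold change was -0.08, and 16 of 28 were negative. Over all tested genes the median was 0.04 and 47.6% were negative. Over the 4828 protein-coding genes of at least 1 RPKM on average, the median was -0.33 and 77.2% were negative. For 24 of the 28 the change was smaller than its standard error (85.7%, against 60.9% of all tested genes). For 25 of the 28 the gap between the hypertonic libraries was wider than the change between groups, as it was for 12861 of the 21238 tested genes. The medians of all 3 lists given below were negative with TMM factors and turned positive with total count or upper-quartile scaling, which raised the median of all tested genes to 0.26 and 0.23.

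**Figure D1:**
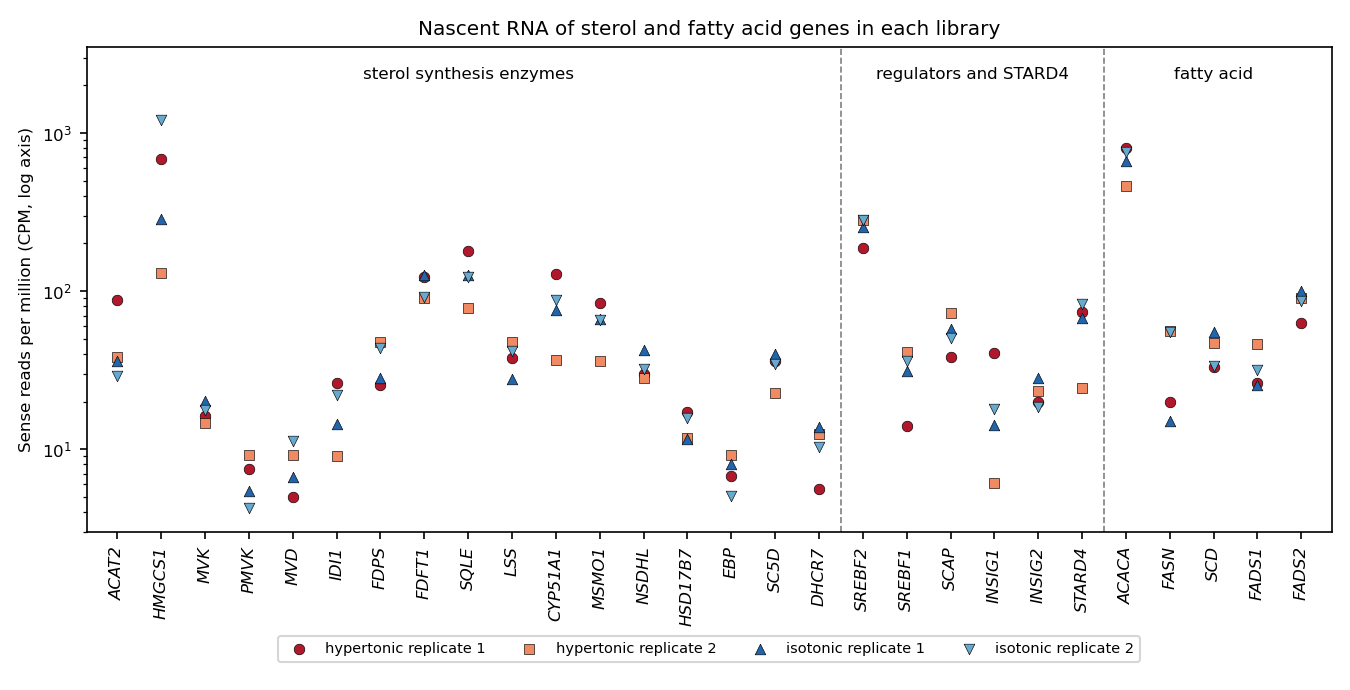
Sense-strand level of each of the 28 genes in each library, in CPM on a log axis; circles and squares are the hypertonic libraries and triangles the isotonic ones. The 2 groups overlap for 24 of the 28 genes, and HMGCS1 spans from 129.6 to 1212 CPM.

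Of the 17 sterol synthesis enzymes, 9 had a negative and 8 a positive log2 fold change, with a median of -0.05. The groups did not overlap in 4 of them, against 40.1% of all tested genes. MVK and NSDHL were the 2 whose hypertonic libraries were the lower pair (11.8%, against 17.5% of all tested genes). ACAT2 and PMVK were the 2 whose hypertonic libraries were the higher pair (11.8%, against 22.5%). Those shares depended on level. Among tested genes of at least 10 CPM on average, 27.3% had the hypertonic libraries as the lower pair and 10.5% as the higher. Among expressed protein-coding genes the shares were 38.7% and 5.32%. None of the 11 other members had groups that did not overlap, so the shares over the 28 were 7.14% each way.

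ACAT2, the cytosolic thiolase that makes acetoacetyl-CoA (chromosome 6, 159760328 to 159779055, plus strand), stood at 87.8, 38.4, 36.0 and 29.002 CPM. Hypertonic replicate 1 was high and the other 3 were close, so hypertonic replicate 2 exceeded the higher isotonic library by little. The log2 fold change was 0.96 ± 0.51, the highest of the 28, and 0.20 with hypertonic replicate 1 left out. HMGCS1 stood at 689.6, 129.6, 285.6 and 1212 CPM, so each group held a high and a low library and the groups overlapped in part. Its log2 fold change of -0.87 ± 0.83 was the lowest of the 28, and became 0.48 without isotonic replicate 2 and -2.56 without hypertonic replicate 1.

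The 3 enzymes that turn mevalonate into isopentenyl diphosphate were made at low levels. MVK, the mevalonate kinase, stood at 16.2, 14.5, 20.3 and 17.6 CPM, with both hypertonic libraries slightly below both isotonic ones (log2 fold change -0.30 ± 0.52). PMVK, the phosphomevalonate kinase, stood at 7.52, 9.16, 5.47 and 4.23 CPM, with both hypertonic libraries above (0.78 ± 0.62). MVD, the mevalonate diphosphate decarboxylase, stood at 4.98, 9.19, 6.62 and 11.3 CPM, where replicate 2 was the higher library in both groups (-0.34 ± 0.65). PMVK rested on 82 to 233 reads a library, which limits its precision.

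IDI1, which isomerises isopentenyl diphosphate, stood at 26.2, 9.04, 14.4 and 22.1 CPM, the hypertonic libraries lying outside the isotonic ones on both sides (-0.05 ± 0.64). FDPS, which builds farnesyl diphosphate, stood at 25.3, 47.6, 28.1 and 43.8 CPM, with replicate 2 the higher in both groups (0.02 ± 0.51). FDPS and HSD17B7 have pseudogene copies, and how the authors' counting split shared reads is not known. FDFT1, the squalene synthase and so the entry to the sterol branch, stood at 122.0, 89.9, 127.0 and 92.2 CPM, with replicate 1 the higher in both groups (-0.05 ± 0.40).

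SQLE, the squalene epoxidase and a rate-limiting enzyme of the pathway (chromosome 8, 124998497 to 125022283, plus strand), stood at 178.3, 78.0, 125.6 and 121.9 CPM. The isotonic libraries nearly coincided and the hypertonic ones lay on either side (0.05 ± 0.46). CYP51A1, the lanosterol demethylase (chromosome 7, 92112151 to 92134803, minus strand), had the same layout at 128.6, 36.9, 75.6 and 87.2 CPM (0.02 ± 0.56). MSMO1, the C-4 methylsterol oxidase (chromosome 4, 165327623 to 165343160, plus strand), had it again at 84.1, 36.0, 66.1 and 65.5 CPM (-0.13 ± 0.49).

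The remaining sterol enzymes act on lanosterol and later sterols, except LSS. LSS, which cyclises squalene epoxide to lanosterol, stood at 37.6, 47.5, 27.71 and 42.0 CPM (0.29 ± 0.47), with isotonic replicate 1 lowest. NSDHL, which acts with MSMO1 in C-4 demethylation, stood at 29.7, 28.02, 42.6 and 32.0 CPM, both hypertonic libraries below both isotonic ones (-0.37 ± 0.46). HSD17B7, the ketoreductase of the same step, stood at 17.1, 11.8, 11.7 and 15.6 CPM with overlapping groups (0.08 ± 0.55).

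EBP, the sterol isomerase, stood at 6.76, 9.12, 8.02 and 5.06 CPM (0.28 ± 0.62), and its entry overlaps another gene on its strand. SC5D, the lathosterol desaturase, stood at 35.9, 22.6, 40.0 and 34.8 CPM, with hypertonic replicate 2 lowest (-0.35 ± 0.48). DHCR7, the last enzyme of one branch to cholesterol, stood at 5.62, 12.5, 13.8 and 10.3 CPM, with hypertonic replicate 1 lowest (-0.41 ± 0.63). In all 3 the groups overlapped. Low counts limit DHCR7, which had 133 to 562 reads a library.

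Among the regulators and STARD4, 4 of 6 log2 fold changes were negative, with a median of -0.15, and the groups overlapped in all 6. SREBF2 (chromosome 22, 41833079 to 41907308, plus strand) stood at 187.1, 279.9, 254.5 and 280.7 CPM, with hypertonic replicate 1 low and the other 3 close together (-0.20 ± 0.40). SREBF1 (chromosome 17, 17812073 to 17837002, minus strand) stood at 14.0, 41.1, 31.3 and 36.0 CPM, again with hypertonic replicate 1 low (-0.29 ± 0.58). Both entries overlap another gene on their strand. SCAP stood at 38.2, 72.3, 57.6 and 50.4 CPM, hypertonic replicate 1 lowest and hypertonic replicate 2 highest (0.03 ± 0.46).

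INSIG1, which retains SCAP and is itself a sterol-responsive target of SREBP (chromosome 7, 155297776 to 155310235, plus strand), stood at 40.7, 6.09, 14.3 and 18.0 CPM. The hypertonic libraries lay far to either side of the isotonic ones (0.54 ± 0.79). INSIG2, its relative, stood at 19.9, 23.2, 28.03 and 18.5 CPM with overlapping groups (-0.11 ± 0.51). Its hypertonic libraries were close, and isotonic replicate 1 was 1.51-fold isotonic replicate 2. STARD4, which moves cholesterol between membranes (chromosome 5, 111496033 to 111512590, minus strand), stood at 73.4, 24.5, 67.6 and 83.3 CPM. Hypertonic replicate 1 lay between the isotonic libraries and hypertonic replicate 2 stood apart below (-0.63 ± 0.55, or -0.045 with that library left out and -1.66 with hypertonic replicate 1 left out).

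Of the 5 fatty acid genes, 3 had a negative log2 fold change, the median was -0.14, and the groups overlapped in all 5. ACACA, the acetyl-CoA carboxylase that commits carbon to fatty acids, stood at 799.4, 460.6, 664.1 and 757.3 CPM, with hypertonic replicate 2 lowest (-0.17 ± 0.44). The ACACA entry overlaps another gene on its strand. FASN, the fatty acid synthase (chromosome 17, 82078333 to 82098332, minus strand), stood at 19.8, 56.2, 15.1 and 55.2 CPM. Replicate 2 was high and replicate 1 low in both groups, and the group means differed by little beside that (0.12 ± 0.71). Leaving out each library in turn moved the log2 fold change of FASN to 0.65 and -0.83 (hypertonic replicates 1 and 2) and to -0.58 and 1.29 (isotonic replicates 1 and 2).

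The other 3 are desaturases, which place double bonds in fatty acids. SCD, which makes monounsaturated fatty acids, stood at 33.3, 47.2, 55.3 and 33.7 CPM (-0.14 ± 0.47). FADS1 stood at 26.1, 46.4, 25.4 and 31.5 CPM (0.35 ± 0.50). FADS2, which like FADS1 desaturates polyunsaturated fatty acids, stood at 62.6, 90.9, 99.5 and 86.6 CPM (-0.28 ± 0.40). In each, 1 hypertonic library lay inside the isotonic range, so the groups overlapped. FADS1 lies inside the FADS2 entry on the opposite strand, so a read assigned to the wrong strand at that place would count for the other gene.

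**Figure D2:**
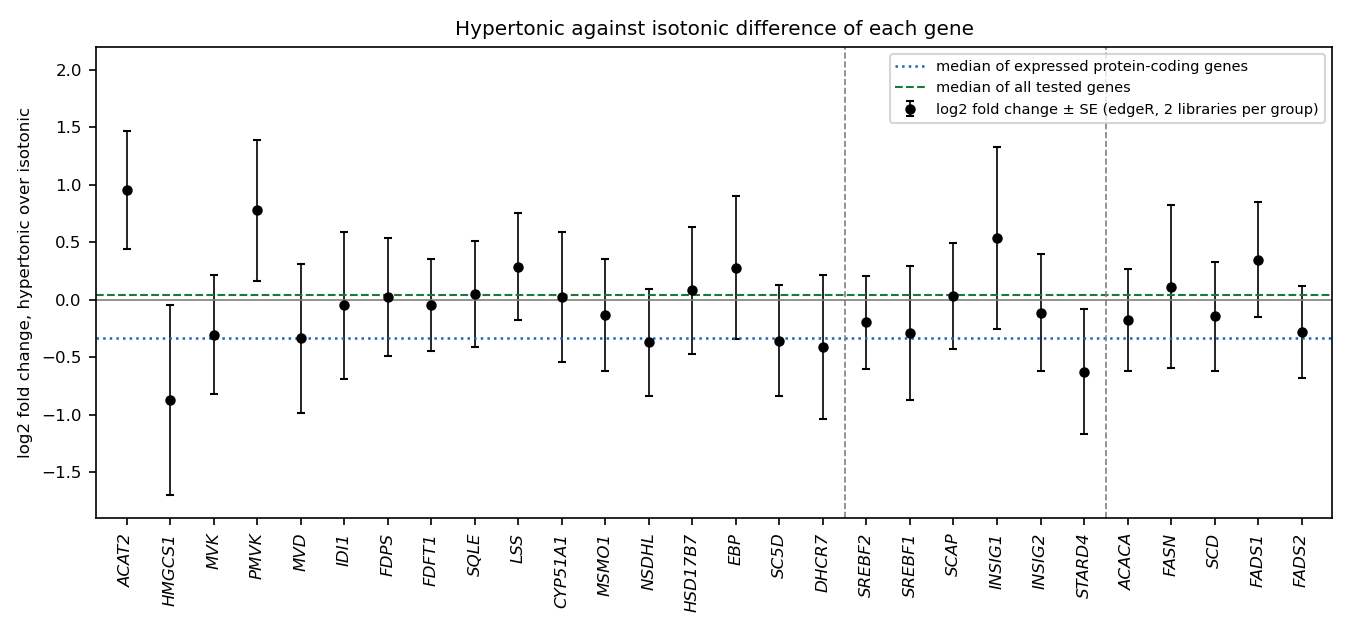
Log2 fold change, hypertonic over isotonic, of each gene with its standard error (edgeR, 2 libraries a group); lines mark 0 and the medians of all tested genes (0.04) and of expressed protein-coding genes (-0.33). The bars of 24 of the 28 genes cross 0, and the 4 that do not are ACAT2, HMGCS1, PMVK and STARD4.

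The widest differences among the 28 lay within the groups. In the hypertonic group a set of sterol genes was high in replicate 1 and low in replicate 2. With 0.5 CPM added to each value, 8 genes were at least 2-fold higher in hypertonic replicate 1 than in hypertonic replicate 2. The within-group folds of single genes given from here on are CPM ratios with nothing added. INSIG1 differed 6.69-fold, HMGCS1 5.32-fold, CYP51A1 3.49-fold, STARD4 3.00-fold, IDI1 2.90-fold, MSMO1 2.34-fold, ACAT2 2.29-fold and SQLE 2.29-fold. All 8 are sterol genes, 6 of the 17 enzymes (35.3%) with INSIG1 and STARD4. Of the 9879 tested genes of at least 10 CPM on average, 16.6% were this much higher in replicate 1 and 20.6% this much higher in replicate 2.

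In the other direction, 3 of the 28 (10.7%) were at least 2-fold higher in hypertonic replicate 2. SREBF1 differed 2.94-fold, FASN 2.84-fold and DHCR7 2.23-fold. Scaled by total count in place of TMM, the 8 became 5 (HMGCS1, IDI1, CYP51A1, INSIG1 and STARD4) and the 3 became 7, while the shares of genes of at least 10 CPM became 8.73% and 29.7%. Over those genes a gap as wide as that of INSIG1 was found in 1.66%, as wide as that of HMGCS1 in 2.70% and as wide as that of CYP51A1 in 10.1%. The widths of the other gaps were commoner, with 28.2% of genes reaching that of SQLE.

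The isotonic libraries were closer to each other. The median width of the gap, as a log2 ratio, was 0.82 between the hypertonic libraries and 0.33 between the isotonic ones for the 28, and 0.76 and 0.25 for genes of at least 10 CPM. Only HMGCS1 and FASN had an isotonic gap of at least 2-fold: isotonic replicate 2 was 4.24-fold higher for HMGCS1 and 3.66-fold higher for FASN. Gaps that wide were found in 0.445% and 0.678% of genes of at least 10 CPM. HMGCS1 and FASN therefore varied widely in both groups. INSIG1, CYP51A1, STARD4, MSMO1, ACAT2 and SQLE instead had a wide gap in the hypertonic libraries and isotonic ratios of 1.26-fold or less.

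**Figure D3:**
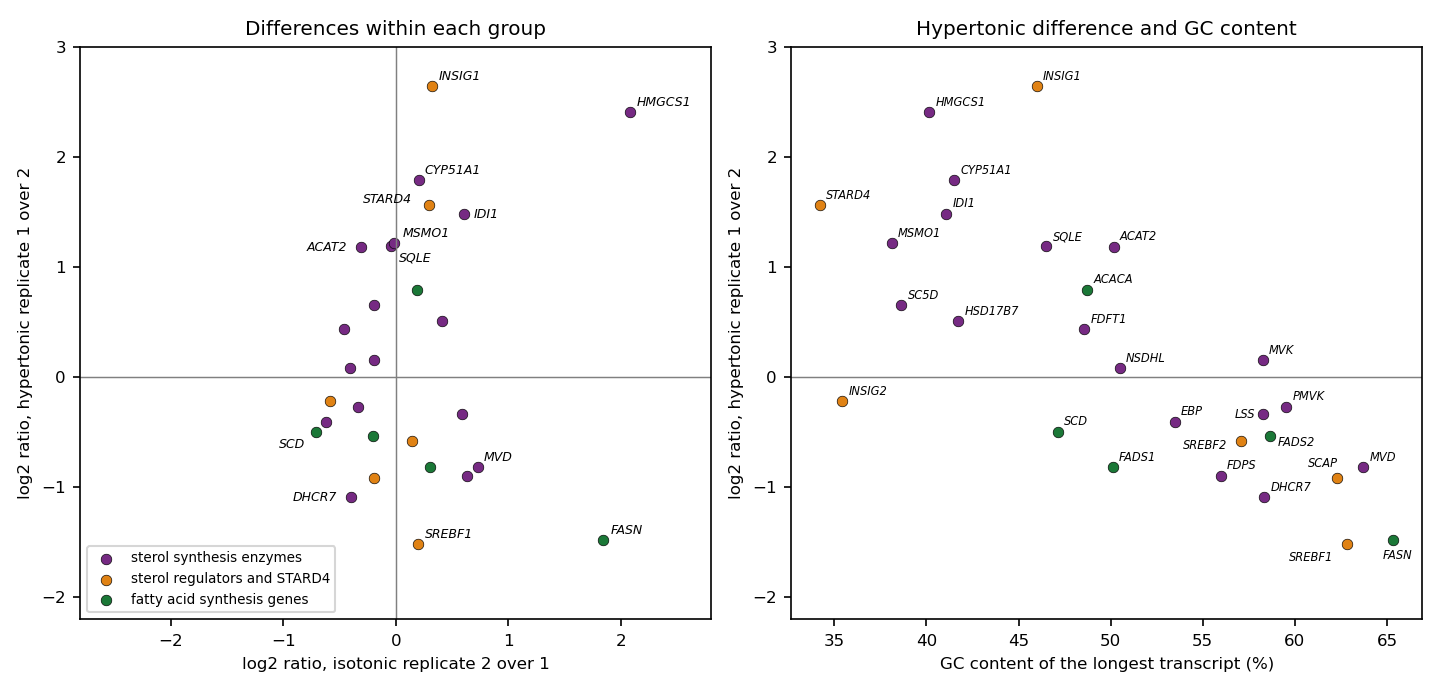
Left, log2 ratio of hypertonic replicate 1 over 2 against that of isotonic replicate 2 over 1 for each of the 28 genes; right, the same hypertonic ratio against the GC content of the gene's longest transcript. INSIG1 and HMGCS1 stand highest in both panels, HMGCS1 and FASN stand far right in the left panel, and in the right panel genes of low GC lie mostly above 0 and genes of high GC below.

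The gap between the hypertonic libraries went with the GC content of the spliced transcript, which leaves out the introns that the reads also cover. Across the 28, the log2 ratio of hypertonic replicate 1 over 2 and the GC content of the longest GENCODE transcript had a Pearson r of -0.74 and a Spearman rho of -0.80 (n = 28 genes). Across the 9879 genes of at least 10 CPM the values were -0.39 and -0.36. Genes are not independent replicates, and all points come from the same pair of libraries. Of the 14 members with at most 50.1% GC, 11 were higher in hypertonic replicate 1, with a median log2 ratio of 0.99. Of the 14 above it, 3 were, with a median of -0.56. Among all genes of at least 10 CPM, the shares higher in replicate 1 were 60.4% and 28.1%.

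The 8 genes high in replicate 1 had GC contents from 34.2% (STARD4) to 50.2% (ACAT2), while SREBF1, FASN and DHCR7 had 62.8%, 65.3% and 58.3%. INSIG2, at 35.4% GC, stood at 0.858-fold in hypertonic replicate 1 over 2 by CPM, against the order. Gene length, which had an r of 0.42 with the same ratio over the 9879 genes, had an r of -0.07 over the 28. The part of GC content in the sterol gene pattern was not tested. Between the isotonic libraries the ratio of replicate 2 over 1 had an r of 0.07 with GC over the 28 and 0.26 over the 9879 genes. Over those 9879 genes, replicate 2 was thus relatively higher at high GC in both groups.

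Antisense reads were more frequent over several of these genes in the hypertonic libraries, as they were over most genes. Of the 27 members with an antisense entry (FADS1 has none), 10 had a mean of at least 1 antisense CPM. Both hypertonic libraries lay above both isotonic ones in 8 of those 10, against 65.6% of the 6642 antisense entries of that level. With edgeR, 3 of the 13 tested members passed an adjusted p of 0.05, against 21.9% of all 9815 tested antisense entries. At an unadjusted p under 0.05 there were 7 of the 13, against 37.9% of those entries. The median antisense log2 fold change was 1.69 over the 13 and 1.34 over all tested entries. The counts are read against those shares, and nothing particular to these genes is read from them.

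The 3 called were ACACA, FDFT1 and IDI1. Antisense ACACA stood at 16.0, 4.91, 1.67 and 1.70 CPM, with a log2 fold change of 2.63 ± 0.80 and an edgeR adjusted p of 0.0268. Antisense FDFT1 stood at 11.95, 4.95, 1.202 and 1.65 CPM (2.57 ± 0.79, edgeR adjusted p = 0.0276). Antisense IDI1 stood at 1.60, 0.511, 0.0736 and 0.206 CPM (3.00 ± 0.97, edgeR adjusted p = 0.0346). It rested on 38, 13, 3 and 4 reads, and its mean lay under 1 antisense CPM. Both hypertonic libraries were above both isotonic ones in each of the 3 genes. Scaling the antisense reads by TMM factors of their own left 0 of the 3 called, with adjusted p values of 0.359, 0.369 and 0.459 in edgeR. That scaling removes a shift shared by most antisense entries, so it compares each entry with the others. The count of members called was also 0 with the replicate number as a block. Over all antisense entries the count was 2150, which became 0 with their own TMM factors and 1632 with the block. With 1 library left out, the antisense log2 fold change ran from 1.54 to 3.25 for ACACA and from 1.81 to 3.08 for FDFT1. For IDI1 it ran from 1.95 to 3.77. A group then holds a single library, so no calls are given for those runs.

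The antisense share of a gene's reads differed greatly from gene to gene. SQLE had the highest value of any library, at 24.6% in hypertonic replicate 1. Its shares were 24.6% and 15.7% in the hypertonic libraries and 11.8% and 11.9% in the isotonic ones. Antisense SQLE itself stood at 58.2, 14.5, 16.8 and 16.5 CPM, so hypertonic replicate 2 lay below both isotonic libraries in level, though not in share. CYP51A1 stood at 16.3% and 13.8% against 6.01% and 4.90%, and STARD4 at 13.0% and 10.1% against 2.44% and 3.00%. For both, the hypertonic shares lay well above the isotonic ones. ACAT2 did not follow, with 2.44% and 16.2% against 8.14% and 8.996%. At the other end HMGCS1 had 31 antisense reads beside 54748 sense reads over all 4 libraries, 0.0611% ± 0.0435 (SD, n = 2) of reads in the hypertonic and 0.0319% ± 0.0451 (SD, n = 2) in the isotonic group. INSIG1 had 0 beside 2050 sense reads, which allows up to 0.146%, and HSD17B7 and DHCR7 had 0 in all 4 libraries as well. That limit covers counting error only. The library protocol mentions actinomycin D, used to keep strands apart, for certain samples without naming them, so its part in the antisense reads was not tested.

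**Figure D4:**
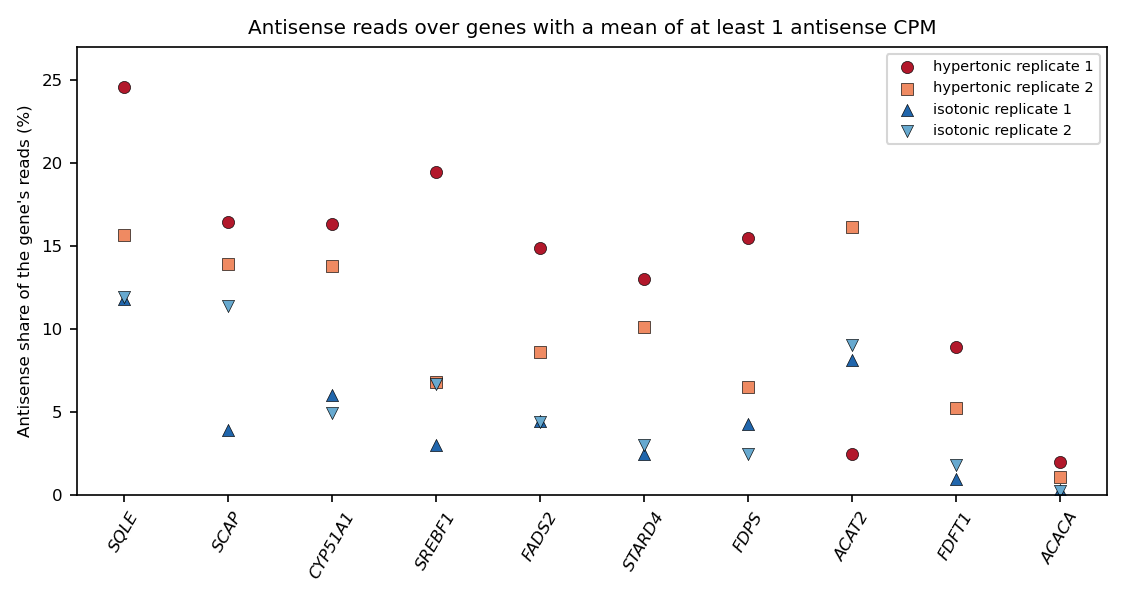
Antisense reads as a percentage of a gene's sense and antisense reads, in each library, for the 10 genes with a mean of at least 1 antisense CPM. Shares reach at most 1.97% for ACACA and 24.6% for SQLE, and ACAT2 alone has a hypertonic library below both isotonic ones.

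Some members have a close neighbour with a larger difference between the groups than their own. The gene upstream of ACAT2 on the same strand, WTAP, ends 4009 bases before it and stood at 67.7, 97.6, 213.6 and 218.6 CPM (log2 fold change -1.39 ± 0.40), lower in both hypertonic libraries while ACAT2 was higher in both. PBXIP1 ends 7085 bases upstream of PMVK and stood at 29.2, 12.7, 3.38 and 2.89 CPM (2.74 ± 0.66), on the same side as PMVK. LRRD1 ends 6840 bases upstream of CYP51A1 and stood at 22.7, 3.34, 1.25 and 1.81 CPM (3.10 ± 0.94). Like CYP51A1 it was high in hypertonic replicate 1. CYBA starts 783 bases downstream of MVD and stood at 1.77, 2.32, 0.270 and 0.464 CPM (2.499 ± 0.80). None passed an adjusted p of 0.05 with edgeR (0.257, 0.201, 0.278 and 0.299 in that order), and whether reads running past a gene's end count for the next gene was not tested.

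Over the 12 tested upstream neighbours, 7 had a positive log2 fold change, with a median of 0.04. Of the 4 downstream neighbours 3 were positive, with a median of 0.87, namely CYBA, SPATC1L (0.92, after LSS) and RUSC1 (0.81, after FDPS), while TMEM258 after FADS1 was at -0.14. Genes that share a promoter region with a member, starting within 1 kb on the other strand, had small changes: MMAB, 69 bases from MVK, was at -0.08, WDR37, 368 bases from IDI1, at -0.36, TADA2A, 94 bases from ACACA, at -0.36, and CETN2, 190 bases from NSDHL, at 0.51. Each of these 4 changes was smaller than its standard error. Genes that end within 5 kb of a member's end on the other strand, a rule added after the values were seen, included WASHC5, 1977 bases from SQLE (-0.55 ± 0.40), and AKAP9, 1478 bases from CYP51A1 (0.24 ± 0.38).

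Other lipid genes likewise held 0 calls by edgeR at an adjusted p of 0.05, as did all tested genes (0%). At an unadjusted edgeR p under 0.05, the share of all tested genes was 10.9%. The list of SREBP processing and degradation, with the proteases, ubiquitin ligases and Golgi tethers that act on SREBP, SCAP and INSIG, had 12 of 15 negative and a median of -0.34, close to the -0.33 of expressed protein-coding genes. The hypertonic libraries were the lower pair in 9 of the 15, against 17.5% of all tested genes and 38.7% of expressed protein-coding ones, and 2 of the 15 had an unadjusted p under 0.05. PAQR3, a Golgi protein that tethers SCAP, stood at 22.3, 27.6, 46.8 and 59.4 CPM (-1.09 ± 0.45), with the groups apart. RNF139, an endoplasmic reticulum ubiquitin ligase, stood at 25.2, 26.1, 48.95 and 57.3 CPM (-1.05 ± 0.44), and RNF145, a ligase of the same compartment, at 74.6, 78.0, 122.2 and 121.7 CPM (-0.68 ± 0.37). In both, the hypertonic libraries were the lower, and neither RNF139 nor PAQR3 passed after adjustment (edgeR adjusted p of 0.430 and 0.425).

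Of the other sterol synthesis genes, 5 of 7 tested were negative, with a median of -0.32. LBR, a sterol reductase of the inner nuclear membrane, was at -0.60 ± 0.45, POR, which hands electrons to CYP51A1 and SQLE, at 0.49 ± 0.46, and GGPS1, which makes geranylgeranyl diphosphate, at -0.34 ± 0.47. IDI2 did not pass the filter on low counts. Of 12 genes of sterol uptake, transport and storage 6 were negative, with a median of -0.05, and of 6 genes of the LXR pathway, which answers sterol excess, 3 were, with a median of -0.15. TMEM97 was at -0.86 ± 0.61, LIPA, the lysosomal lipase, at 0.62 ± 0.50, and OSBP, an oxysterol-binding protein, at -0.44 ± 0.40. NR1H3, which encodes LXR alpha, was at 0.91 ± 0.60 and ABCG1, a sterol exporter, at -0.49 ± 0.54. MYLIP, an LXR target whose product degrades lipoprotein receptors, stood at 357.6, 43.7, 103.1 and 137.6 CPM (0.74 ± 0.77). Its hypertonic libraries lay on either side of the isotonic ones, replicate 1 high.

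Of 26 other fatty acid synthesis genes 16 were negative, with a median of -0.04. ELOVL5, an elongase, was at -0.58 ± 0.42, FADS3 at 0.73 ± 0.57 and ACSL4, an acyl-CoA synthetase, at -0.54 ± 0.43. Of 20 fatty acid oxidation genes 9 were negative, with a median of 0.08, and 1 had an unadjusted p under 0.05. That gene, ACAT1, the mitochondrial thiolase of ketone metabolism, stood at 64.7, 28.96, 21.3 and 17.6 CPM (1.27 ± 0.54, edgeR adjusted p = 0.433). Its 4 values had the same layout as those of the cytosolic thiolase ACAT2, with hypertonic replicate 1 high and hypertonic replicate 2 a little above the isotonic libraries. HADH, a dehydrogenase of beta-oxidation, stood at 51.4, 44.3, 28.007 and 19.1 CPM (1.02 ± 0.47). ACADS, the short-chain acyl-CoA dehydrogenase, stood at 4.77, 6.09, 2.65 and 3.46 CPM (0.83 ± 0.66). Both had the hypertonic libraries above. In the list of 20, the hypertonic libraries were the higher pair in 3 (15%, against 22.5% of all tested genes). They were the lower pair in 3 others (15%, against 17.5%).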

How the data were processed

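Each library had 1 deposited table with an entry per gene and strand. The authors deposited an expected count of reads and an RPKM value in each entry, in columns without a header whose units were inferred from what they hold. Tools listed, with no role, in the submitters' processing notes are STAR 2.5.3a, Bowtie2 2.3.3, bedtools 2.16.2 and CASAVA 1.8.2, and the build is GRCh38. Sense entries were found by the strand in GENCODE 29. Shared-region entries (3.11% to 3.48% of reads) and unmatched genes (0.165% to 0.209%) were left out. Counts were rounded and tested with edgeR 4.0.16 (TMM, filterByExpr, quasi-likelihood test, Benjamini-Hochberg adjustment over all tested genes, threshold 0.05) in R 4.3.3, after the script was tested on simulated data. DESeq2 1.42.0, limma 3.58.1 on voom weights and on log2(RPKM + 0.1) and log2(RPKM + 1), other scalings, no filter, summed strands, a replicate block and leaving out each library were alternatives. The members had 82 to 27078 reads a library. Named genes are all members, the 3 tested genes of smallest p in each other lipid list, and protein-coding neighbours within 10 kb (1 kb for divergent starts). The members and lists were chosen with earlier results of these data known. GC content is that of the longest GENCODE 29 transcript, with introns left out.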

Additional observations from a re-analysis of the deposited data

How the results depend on the processing

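The groups hold 2 libraries each, and 24 of the 28 members changed by less than their standard error. Over all tested genes edgeR counted 0, which became 916 with no filter, 731 with DESeq2 and 384 with a replicate block, and 0 to 4918 with 1 library left out. Over the 21238 tested genes, the deviations of same-numbered replicates from their group means had a correlation of 0.0247. Whether these replicates shared a batch was not tested, and the block called 0 of the 28. Leaving out 1 library gave 0 to 3 members past the threshold, medians of -0.32 to 0.11 for the sterol enzymes, -0.37 to -0.0065 for the regulators and STARD4 and -0.42 to 0.050 for the fatty acid genes, and 7 to 15 sterol enzymes with groups apart (4 with all libraries, fewer libraries making separation easier). For the runs with 1 library left out, no share of all tested genes with groups apart is given. The counts of 7 to 15 are therefore not read as particular to the sterol enzymes. Total count scaling turned the medians of the sterol enzymes, the regulators with STARD4 and the fatty acid genes to 0.13, 0.086 and 0.093. Upper quartile scaling turned these medians to 0.16, 0.029 and 0.038. Total count moved the members 2-fold higher in hypertonic replicate 1 from 8 to 5. The median of all genes, 0.04, became 0.26 by total count, 0.23 by upper quartile and 0.20 with no filter. Antisense calls, 2150 in all and 3 among members, became 0 and 0 with antisense TMM factors, 0 among members with the block, and 0 to 5098 and 0 to 10 with 1 library left out.

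Of the 28 log2 fold changes, 7 kept their sign in every alternative run (ACAT2, MVK, PMVK, NSDHL, SC5D, STARD4 and FADS2). Signs turned as follows, and the cause was not tested. By total count IDI1 was at 0.095, FDFT1 0.13, MSMO1 0.014, SREBF2 0.064, SREBF1 0.023, INSIG2 0.11, ACACA 0.0019 and SCD 0.093. By upper quartile IDI1 was at 0.16, FDFT1 0.15, MSMO1 0.077, INSIG2 0.074, ACACA 0.029 and SCD 0.038. With RLE factors, and with DESeq2, FDPS was at -0.027 and SCAP at -0.015. With no filter FDPS was at -0.036, SQLE -0.018, CYP51A1 -0.048 and SCAP -0.023. With limma-voom SQLE was at -0.073, CYP51A1 -0.24, SCAP -0.040 and INSIG1 -0.019. With the replicate block FDPS was at -0.015, SQLE -0.068, CYP51A1 -0.24, SCAP -0.035 and INSIG1 -0.013. With both strands summed FDPS was at -0.025, HSD17B7 -0.085 and FASN -0.022. On log2(RPKM + 0.1) SQLE was at -0.032 and CYP51A1 at -0.19, and on log2(RPKM + 1) at -0.020 and -0.11.

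With 1 library left out, HMGCS1 ran from -2.56 to 0.48, MVD from -0.84 to 0.059, IDI1 from -1.04 to 0.52, FDPS from -0.51 to 0.37, FDFT1 from -0.32 to 0.18, SQLE from -0.70 to 0.52, LSS from -0.013 to 0.58, CYP51A1 from -1.18 to 0.66, MSMO1 from -0.91 to 0.35, HSD17B7 from -0.24 to 0.32, EBP from -0.054 to 0.62 and DHCR7 from -1.11 to 0.019. SREBF2 ran from -0.52 to 0.030, SREBF1 from -1.27 to 0.25, SCAP from -0.50 to 0.39, INSIG1 from -1.44 to 1.33, INSIG2 from -0.42 to 0.19, ACACA from -0.66 to 0.17, FASN from -0.83 to 1.29, SCD from -0.50 to 0.22 and FADS1 from -0.13 to 0.67. Those that kept their sign also moved: ACAT2 ran from 0.20 to 1.43, MVK from -0.44 to -0.23, PMVK from 0.57 to 0.94, NSDHL from -0.60 to -0.18, SC5D from -0.76 to -0.064, STARD4 from -1.66 to -0.045 and FADS2 from -0.58 to -0.069.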
